A study of Mus musculus with 6 samples.

Results

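The transcripts of Polycomb repressive complex 2 (PRC2) were examined in the cortex of mouse embryos with and without Ybx1. The set held the 9 genes Ezh1, Ezh2, Eed, Suz12, Jarid2, Mtf2, Phf1, Phf19 and Rbbp4, taken as every row of the deposited E18.5 table whose gene symbol is one of these core or accessory subunits. All 9 were among the 17348 genes of the table and among the 13570 that passed the filter on low counts. The cKO embryos carried Nestin-Cre,Ybx1 fl/fl, in which a Cre expressed in neural progenitors and their descendants removes floxed exons of Ybx1. The controls (Ctrl) are labelled WT, and the study describes its controls as littermates, in one place as wild type and in another as Ybx1 fl/fl without Cre. Each group had 3 libraries of whole dissected cortex at E18.5, so other cells of the tissue that do not express the Cre contributed RNA too. The libraries came from separate biological replicates sequenced in 3 batches, and which library belonged to which batch was not given in the sources used here.

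PRC2 places methyl groups on lysine 27 of histone H3, a mark of silenced developmental genes. EZH2 or its paralog EZH1 carries the catalytic activity, EED reads the mark and stimulates the enzyme, SUZ12 is the scaffold, and RBBP4 or RBBP7 binds histones. The Polycomb-like proteins MTF2, PHF1 and PHF19 define one form of the complex, and JARID2 with AEBP2 the other. In the developing cortex Ezh2 is known mainly from dividing progenitors and Ezh1 from cells that have left the cycle, and YBX1, a Y-box DNA- and RNA-binding protein, has been linked to PRC2 in embryonic brain.

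No PRC2 member passed the test between genotypes. The edgeR quasi-likelihood test with Benjamini-Hochberg adjustment over all genes called 0 of 9 members, where 0.0737% of all genes tested were called. At an unadjusted p under 0.05 it also passed 0 of 9, against 6.62% of all genes, and DESeq2 passed 0 members at either threshold. In normalized counts (CPM, reads scaled to the TMM-adjusted library total), the 2 groups overlapped for every member, where 14.3% of all genes had groups that did not overlap. The members' log2 fold changes (cKO minus Ctrl) ran from -0.15 for Ezh2 to 0.14 for Mtf2, with 4 above 0 and 5 below, and their median was -0.04 beside 0.00 for all genes. Their median absolute log2 fold change was 0.07, beside 0.13 for all genes tested. The 95% confidence interval of each of the 9 members lay inside 1.5-fold in both directions. With 3 libraries per group, changes inside these intervals remained compatible with the values. In bulk tissue, fewer cells of a type and less RNA per cell cannot be told apart.

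**Figure D1:**
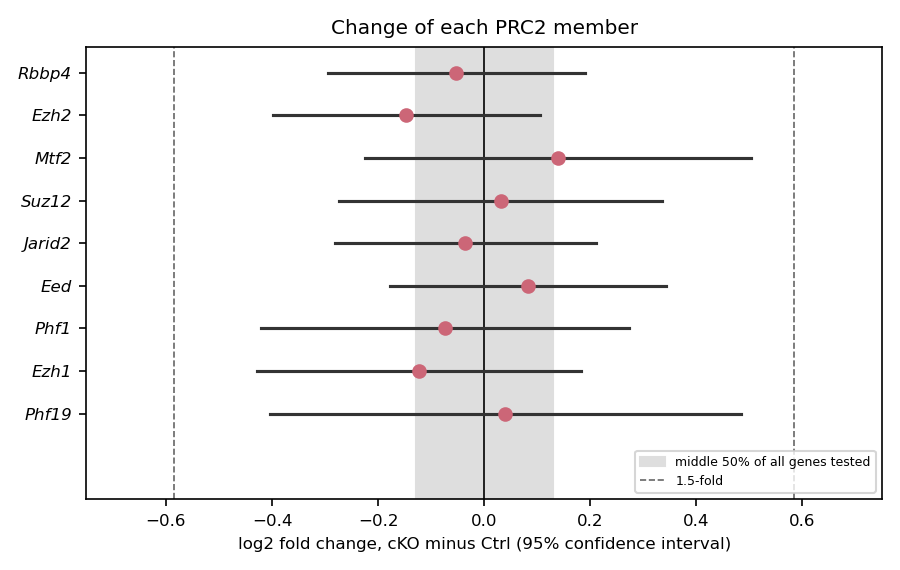
Log2 fold change (horizontal axis, cKO minus Ctrl) of each PRC2 member with its 95% confidence interval from edgeR. The grey band spans the middle 50% of all 13570 genes tested (-0.13 to 0.13) and the dashed lines mark 1.5-fold; all 9 intervals include 0 and none reaches a dashed line.

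The library labels were first checked on the targeted gene and on the sex chromosomes. Ybx1 stood at 1015, 1297 and 956 normalized counts (CPM) in Ctrl and at 24.0, 24.8 and 24.9 in cKO, a log2 fold change of -5.47 ± 0.16 (SE, edgeR adjusted p = 6.95e-07). The groups were also parted by Y-linked transcripts: Eif2s3y, Kdm5d, Ddx3y and Uty were all lower in cKO, with a summed TPM (a unit scaled by transcript length and library total) of 155 to 215 in Ctrl and 0.45 to 0.66 in cKO. The sex of the embryos and their genotype therefore cannot be told apart for any gene, the X- and Y-linked genes described further on among them. All 9 PRC2 members lie on autosomes, and the part of sex in their values was not tested. Library totals ranged from 15091951 to 16885451 estimated counts, so that 3 counts, the floor used, were worth 0.18 to 0.21 CPM.

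The control library numbered 2 stood apart from the rest. The root mean square deviation of its log2 normalized counts from the group mean was 0.30 over all genes, against 0.12 to 0.24 in the other 5 libraries, and its FPKM values summed to 522819 against 424951 to 446619. Over 13385 genes, its deviation ran with transcript length (Spearman rho -0.62) and with GC content (rho 0.54), a description across genes, which are not independent. The other controls ran the opposite way. Their rho with length and GC content was 0.42 and -0.17 in Ctrl replicate 1, and 0.51 and -0.56 in Ctrl replicate 3. Deviations were taken from the mean of the 3 controls, so the trends of these libraries depend on each other. The members followed Ctrl replicate 2 unevenly. It gave the lowest normalized count of the 3 controls for Ezh1, Ezh2, Suz12, Jarid2 and Mtf2, and the highest for Phf1, Phf19 and Rbbp4. The 9 members together summed to 487 TPM in it, against 567 and 641 in the other controls and 597 to 625 in cKO. Without it the median log2 fold change of the members was 0.01 in place of -0.04, and the members whose value turned on it are given without it where they are described.

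**Figure D2:**
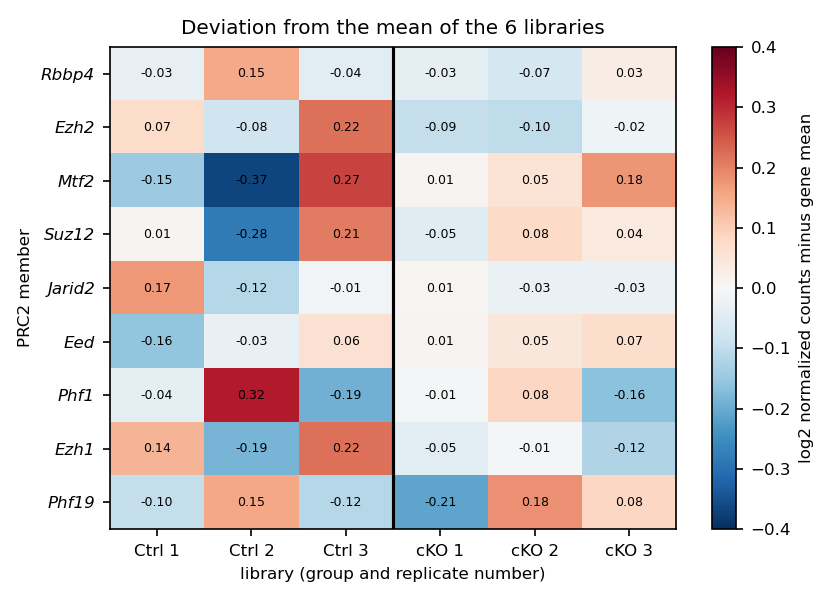
Log2 normalized counts of each PRC2 member (rows, from the highest to the lowest TPM in Ctrl) in each library (columns), as the deviation from that gene's mean over the 6 libraries. The widest deviations stand in Ctrl replicate 2, -0.37 for Mtf2 and 0.32 for Phf1, and those of the 3 cKO libraries stay between -0.21 and 0.18.

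By TPM, which is scaled by transcript length and so allows levels of different genes to be set side by side, the members spanned a wide range. Rbbp4 was the most abundant at 167 ± 3.17 TPM in Ctrl (SD, n = 3) and Phf19 the least at 3.02 ± 0.287 TPM. Among the genes tested they stood at the 92.7th and the 14.7th percentile. Between them came Ezh2 (145 TPM, from 117 to 171 over the controls), Mtf2 (77.9 ± 24.2 TPM), Suz12 (59.6 ± 14.6), Jarid2 (36.6 ± 5.70), Eed (30.8 ± 3.97), Phf1 (28.7 ± 2.66) and Ezh1 (16.0 ± 3.55). The order was the same in 5 of the 6 libraries, and in Ctrl replicate 2 Jarid2, Eed and Phf1 changed places. Some neighbours did not differ beyond their spread in Ctrl: Rbbp4 and Ezh2, Mtf2 and Suz12, and Jarid2, Eed and Phf1 had overlapping TPM ranges. In cKO the means followed the same order, from 179 ± 6.86 TPM for Rbbp4 to 3.59 ± 0.741 TPM for Phf19.

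Of the 2 catalytic subunits, Ezh2 (chr6:47530139-47595341, minus strand, GRCm38) made up most of the transcript in both genotypes. Its normalized counts (CPM) were 156, 141 and 173 in Ctrl and 139, 139 and 147 in cKO. The lower cKO values lay just under the lowest control, and the highest of them exceeded 1 control. The log2 fold change was -0.15 ± 0.11 (SE), a fold of 0.903 with an interval of 0.758 to 1.08 (edgeR adjusted p = 0.856). Ezh1 (chr11:101191115-101226463, minus strand), whose complexes are less active as methyltransferases, gave 30.4, 24.3 and 32.3 CPM in Ctrl and 26.8, 27.6 and 25.5 in cKO. All 3 cKO values of Ezh1 lay between the lowest and the other 2 controls. Its fold was 0.919 (0.743 to 1.14, adjusted p = 0.900).

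Both catalytic subunits depended on single control libraries. Without Ctrl replicate 2, the log2 fold change was -0.22 for Ezh2 (edgeR adjusted p = 0.304) and -0.23 for Ezh1 (adjusted p = 0.360). Both then passed an unadjusted p of 0.05 in that fit, as did 12.1% of all genes, and neither passed the adjusted threshold. Without Ctrl replicate 3 they were nearer to 0, at -0.07 for Ezh2 (adjusted p = 0.779) and -0.04 for Ezh1 (adjusted p = 0.910). With a correction of each library for transcript length and GC content, all 6 libraries kept, the values were -0.17 ± 0.08 for Ezh2 (adjusted p = 0.407) and -0.14 ± 0.11 for Ezh1 (adjusted p = 0.663). Under that correction 6 of the 9 members were below 0 and 3 above, and none passed either threshold.

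The balance between the enzymes was nearly fixed. Ezh2 made up 89.6%, 90.7% and 90.1% of the summed TPM of Ezh1 and Ezh2 in Ctrl and 89.7%, 89.5% and 90.7% in cKO. The groups overlapped, and the mean share was 90.1% ± 0.527 in Ctrl and 89.96% ± 0.630 in cKO (SD, n = 3 each; two-sided exact permutation test, p = 0.7, where 3 against 3 libraries cannot go below 0.1). The share also held in Ctrl replicate 2, in which both genes were at their lowest TPM of the 6 libraries. Over the 6 libraries the log2 normalized counts of Ezh1 and Ezh2 correlated with Pearson r = 0.83, a description in which the points share depth and the length and GC trend of the libraries.

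**Figure D3:**
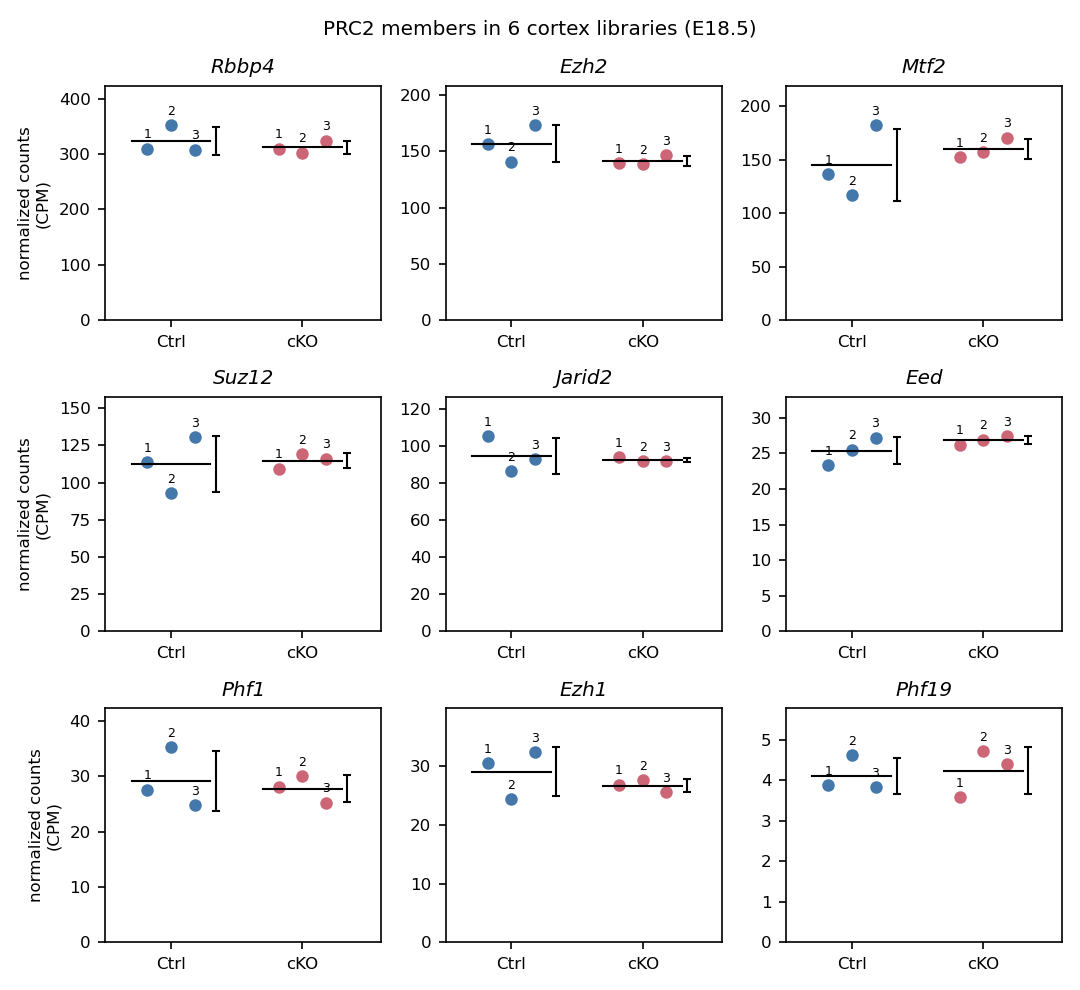
Normalized counts in CPM (vertical axes, from 0) of the 9 PRC2 members in Ctrl (blue) and cKO (red), with 1 numbered point per library, a line at the group mean and a bar of 1 SD. The groups overlap in every panel, and the spread is wider in Ctrl than in cKO in each panel but that of Phf19.

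The other core subunits differed less than their controls varied. Eed (chr7:89954654-89980983, minus strand) gave 23.4, 25.5 and 27.2 CPM in Ctrl and 26.2, 26.9 and 27.4 in cKO, a fold of 1.06 (0.884 to 1.27, edgeR adjusted p = 0.915). The scaffold gene Suz12 (chr11:79993106-80034123, plus strand) gave 114, 92.9 and 131 in Ctrl and 109, 119 and 116 in cKO, a fold of 1.02 (0.827 to 1.26, adjusted p = 0.971). All cKO values of Suz12 lay inside the control range. The extremes of Suz12 were control replicates 2 and 3, and the log2 fold change of 0.03 was -0.09 without the former and 0.15 without the latter.

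Rbbp4 (chr4:129307100-129335370, minus strand), a WD-repeat histone chaperone that also serves other chromatin complexes, gave 309.8, 352 and 308 CPM in Ctrl and 309.7, 302 and 324 in cKO. Its fold was 0.964 (0.815 to 1.14, edgeR adjusted p = 0.937), and the highest value was again that of Ctrl replicate 2, without which the log2 fold change was 0.01 in place of -0.05. It was -0.09 without Ctrl replicate 3 and -0.14 ± 0.11 after the length and GC correction (adjusted p = 0.644). The estimated counts of Rbbp4 were not whole numbers in 5 of the 6 libraries, nor were those of Ezh2 in 2 controls, as happens when reads are divided between loci. How many reads were divided is not given in the table.

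Rbbp7, the paralog of Rbbp4, is X-linked and was not among the 9. It gave 109.6, 120.5 and 110.6 CPM in Ctrl and 122, 124 and 123 in cKO. All 3 cKO values were above all controls, but by little, and the log2 fold change of 0.12 ± 0.10 did not pass (edgeR adjusted p = 0.861). As a share of the summed TPM of the pair, Rbbp4 made up 57.3%, 58.3% and 57.0% in Ctrl and 54.7%, 53.6% and 55.5% in cKO. The means were 57.5% ± 0.660 and 54.6% ± 0.951, a difference of -2.93 percentage points without overlap (p = 0.1 by exact permutation, two-sided, the minimum for this design). Sex and genotype cannot be told apart for this share.

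Among the Polycomb-like genes, Mtf2 and Phf1 varied most from library to library, and Phf19 was low throughout. Mtf2 (chr5:108065674-108109004, plus strand), which binds methylated H3K36 and CpG-rich DNA and was the most abundant of them, gave 137, 117 and 183 CPM in Ctrl and 153, 157 and 171 in cKO. Its highest library exceeded its lowest by 1.56-fold, the widest span of the 9, and both extremes were controls. The fold between genotypes was 1.10 (0.856 to 1.42, edgeR adjusted p = 0.900). Without Ctrl replicate 3 the log2 fold change of Mtf2 was 0.34 (adjusted p = 0.309), which passed an unadjusted p of 0.05 as did 14% of all genes in that fit. Without Ctrl replicate 2 it was 0.01.

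Phf1 (chr17:26933052-26937908, plus strand) ran opposite to Mtf2 over the libraries. It gave 27.6, 35.2 and 24.7 CPM in Ctrl and 28.1, 29.96 and 25.2 in cKO, and its highest library was the one in which Mtf2 was lowest. The fold was 0.950 (0.747 to 1.21, edgeR adjusted p = 0.937), and over the 6 libraries the log2 normalized counts of Phf1 and Mtf2 correlated with Pearson r = -0.88. By their longest annotated transcripts, Mtf2 was at the low end of GC content of the genes tested (38.2%, percentile 2.4). Phf1 was at the high end (58.6%, percentile 91.9). In Ctrl replicate 2, log2 deviations from the control mean were -0.285 for Mtf2 and 0.284 for Phf1. Suz12 (GC percentile 11.2), Ezh2 (22.9), Jarid2 (45.2) and Phf19 (71.8) deviated by -0.26, -0.15, -0.13 and 0.155. Rbbp4 (26.7), Eed (39.8) and Ezh1 (57.8) deviated by 0.126, 0.011 and -0.24, against the GC trend of that library. By transcript length these 3 stood at percentiles 70.5, 19 and 62.6, and the length trend of that library was negative (rho -0.62). The part of GC content or transcript length in these values was not tested. The log2 fold change of Phf1 was 0.09 without that library and -0.18 without Ctrl replicate 3, in place of -0.07. After the length and GC correction the log2 fold changes were 0.11 ± 0.08 for Mtf2 and -0.01 ± 0.09 for Phf1. Phf19 (chr2:34893757-34914026, minus strand) had 56 to 79 estimated counts per library and gave 3.89, 4.63 and 3.84 CPM in Ctrl and 3.59, 4.72 and 4.41 in cKO. Its fold was 1.03 (0.756 to 1.40, adjusted p = 0.976), the interval being the widest of the 9 on the log2 scale.

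Mtf2 supplied most of the Polycomb-like transcript. Its share of the summed TPM of Mtf2, Phf1 and Phf19 was 70.4%, 61.7% and 77.9% in Ctrl and 72.4%, 71.2% and 75.9% in cKO. The cKO values lay inside the control range (two-sided exact permutation test, p = 0.7).

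Jarid2 (chr13:44729474-44921643, plus strand), which tethers the other form of PRC2 to its targets, gave 105, 86.2 and 92.8 CPM in Ctrl and 93.9, 91.8 and 91.6 in cKO. The 3 cKO libraries were within a few percent of each other (coefficient of variation 1.34%) and inside the control range. The fold was 0.975 (0.822 to 1.16, edgeR adjusted p = 0.958), a log2 fold change of -0.04. It was 0.05 without Ctrl replicate 1 and -0.17 ± 0.10 after the length and GC correction (adjusted p = 0.515). Its partner Aebp2 gave 52.4 ± 3.66 CPM in Ctrl and 58.2 ± 2.19 in cKO (adjusted p = 0.846). Jarid2 and Aebp2 together made up 36.5%, 34.4% and 31.4% of the summed TPM of the 5 accessory genes in Ctrl and 33.6%, 32.6% and 32.5% in cKO, with overlap between the groups (p = 0.6, exact permutation, two-sided).

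The wider spread in Ctrl was shared by most genes. The coefficient of variation of normalized counts was larger in Ctrl for 8 of the 9 members, from 7.54% for Eed to 23.0% for Mtf2, where 77.1% of all genes tested had the larger one in Ctrl. In cKO it ran from 1.34% for Jarid2 to 13.8% for Phf19. The median over all genes was 16.0% in Ctrl and 7.48% in cKO.

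The TPM values gave another picture of direction, through their scale. On log2(TPM + 0.1), the median of all genes tested was 0.16 higher in cKO, and all 9 members were above 0. Relative to that shift, 4 members were above and 5 below the median of all genes, from -0.15 for Ezh2 to 0.14 for Mtf2, the same members on each side as with normalized counts. Eed (29.2, 27.9 and 35.3 TPM in Ctrl, 35.4, 36.0 and 36.8 in cKO) and Rbbp4 (165.6, 165.3 and 171 TPM in Ctrl, 178, 172 and 186 in cKO) had TPM ranges that did not overlap, although their normalized counts did. The ranges of Eed were apart by little (35.31 in Ctrl against 35.39 in cKO). The share of all genes whose TPM ranges did not overlap is not given here, so this is a description only.

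Stretches of 150 bases just upstream of the annotated start are shown for 3 core members, because CCAAT, the core of the Y-box from which YBX1 takes its name, was among the letters searched and these were the core genes with a match there. The sequences are from RefSeq (GRCm38.p6), 5′ to 3′ on the gene's strand, with CCAAT or its reverse ATTGG in capitals. They lie at chr6:47595031-47595180 (minus strand) for Ezh2, at chr11:79992956-79993105 (plus strand) for Suz12 and at chr4:129335371-129335520 (minus strand) for Rbbp4.
Ezh2: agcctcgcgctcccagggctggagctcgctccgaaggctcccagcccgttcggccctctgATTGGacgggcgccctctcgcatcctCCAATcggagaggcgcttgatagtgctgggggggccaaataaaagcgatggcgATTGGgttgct
Suz12: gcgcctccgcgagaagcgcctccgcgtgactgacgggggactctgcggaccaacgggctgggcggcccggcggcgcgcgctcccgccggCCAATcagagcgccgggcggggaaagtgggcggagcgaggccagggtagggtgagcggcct
Rbbp4: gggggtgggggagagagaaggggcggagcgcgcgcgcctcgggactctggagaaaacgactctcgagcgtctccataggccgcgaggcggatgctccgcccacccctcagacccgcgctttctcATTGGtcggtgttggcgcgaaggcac

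Ezh2 had 3 such matches, beginning 90, 64 and 11 bases before the start, Suz12 had 1 at 61 bases and Rbbp4 had 1 at 26 bases. In GENCODE M21 the Suz12 and Rbbp4 stretches overlapped no exon, and part of the Ezh2 stretch overlapped the first exon of a transcript annotated for nonsense-mediated decay. In windows from 250 bases before to 50 after the start, CCAAT on either strand was in 7 of the 11 windows of the 9 members and in 37.4% of all 32851 windows. The E2F forms TTTCCCGC and TTTGGCGC, on either strand, were in 3 of the 11 (Ezh2, Suz12 and Phf19) and in 1.6% of all windows. In the members' windows no match of one kind overlapped a match of the other. These are matches of letters, and binding was not measured here.

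Other genes that act with or against PRC2 were read from lists. Of the 6 other PRC2 partners (Rbbp7, Aebp2, Lcor, Lcorl, Epop and Ezhip), 5 were tested by edgeR and 0 passed at either threshold. Their median log2 fold change was 0.12, with values from -0.23 for Epop to 0.15 for Aebp2. The summed TPM of the 6 did not overlap between the groups (173 to 212 in Ctrl, 221 to 232 in cKO). That sum was higher in cKO on the scale on which the median gene was also 0.16 higher. The summed TPM of the other histone-modifier lists overlapped. Ezhip, an inhibitor of the enzyme, had at most 1 count in any library, under the floor. Of 26 genes of Polycomb repressive complex 1, which reads the PRC2 mark through its Cbx proteins and ubiquitylates histone H2A, 0 passed at either threshold, 14 were above 0 and 12 below, and the median was 0.02. Their lowest p belonged to Cbx7 (7.76 ± 0.785 CPM in Ctrl, 5.97 ± 0.801 in cKO, log2 fold change -0.38, adjusted p = 0.777) and Cbx2 (51.7 ± 3.96 and 45.7 ± 2.37, log2 fold change -0.18, adjusted p = 0.823). Of 11 genes of the H3K4 methyltransferase complexes, whose mark opposes that of PRC2, 0 passed at either threshold and the median was 0.01. Ash2l had the lowest p among them (137 ± 3.55 and 119 ± 4.30 CPM, log2 fold change -0.21, adjusted p = 0.777).

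**Figure D4:**
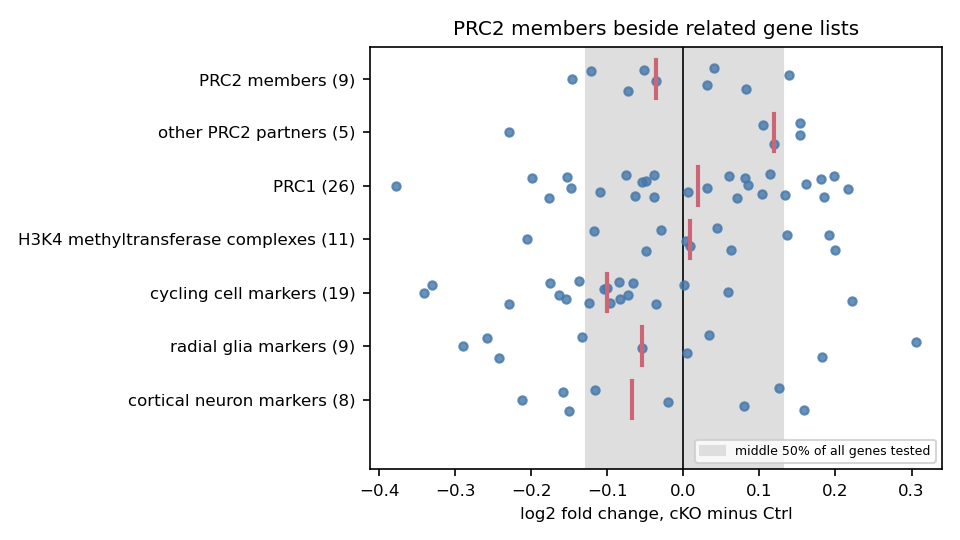
Log2 fold change (horizontal axis, cKO minus Ctrl) of every tested gene of the PRC2 set and of 6 related lists, with the number of genes in parentheses, 1 point per gene and a red line at the median of each list. Points are spread vertically only to separate them; the grey band spans the middle 50% of all genes tested, and the medians run from -0.10 for the cycling cell markers to 0.12 for the other PRC2 partners.

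The list of the H3K27 demethylases Kdm6a and Kdm6b, which remove the PRC2 mark, also held Uty, the only called gene of these histone-modifier lists. Uty, the Y-linked paralog of Kdm6a, gave 508, 352 and 487 estimated counts in Ctrl and 14, 19 and 22 in cKO (log2 fold change -4.62, edgeR adjusted p = 8.92e-05), as did the other Y-linked genes. X-linked Kdm6a gave 44.3, 28.0 and 53.4 CPM in Ctrl and 63.0, 60.6 and 63.7 in cKO. All cKO values of Kdm6a exceeded all controls, with a log2 fold change of 0.58 ± 0.20 that did not pass (adjusted p = 0.607). Summed as TPM, Kdm6a and Uty came to 30.3, 17.8 and 35.6 in Ctrl and 26.3, 24.8 and 26.2 in cKO, with overlap (p = 0.7, exact permutation, two-sided). This is a sum of transcript, and enzyme activity was not measured. Kdm6b, an autosomal member, gave 172 ± 20.3 and 202 ± 15.9 CPM (adjusted p = 0.796).

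Of the genes that PRC2 is known to silence in the cortex, the 8 read here were at or near 0 counts in both genotypes. Of 41 Hox genes and Cdkn2 genes, 8 were in the table and 33 were not analysed here. None of the 8 passed the filter on low counts, so none was tested. Hoxb4, Hoxc4, Hoxc5, Hoxc6, Hoxc10, Hoxd8 and Cdkn2a had at most 1 count in any library. Cdkn2b, a cell cycle inhibitor, had 2, 7 and 2 counts in Ctrl and 6, 5 and 3 in cKO. The 8 genes together summed to 0.25 to 1.17 TPM in Ctrl and 0.83 to 1.09 TPM in cKO, and the ranges overlapped.

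Markers of the cells in the tissue were set beside Ezh2, a gene of dividing progenitors. Of 19 cycling cell markers, 0 passed the adjusted threshold of edgeR and 1, Cenpf (log2 fold change -0.34, adjusted p = 0.736), passed an unadjusted p under 0.05. Over all 13570 genes tested, 6860 were above 0. The cycling cell markers had a median of -0.10, with 16 of 19 below 0, beside -0.15 for Ezh2. The summed TPM of these markers overlapped between the groups (682 to 780 in Ctrl, 715 to 773 in cKO), as did that of 9 radial glia markers (1492 to 2150 and 1676 to 2019), of 5 intermediate progenitor markers (311 to 337 and 311 to 381) and of 8 cortical neuron markers (3315 to 4567 and 3815 to 4186). Of the radial glia markers, 4 were above 0 and 5 below, with a median of -0.05. Their lowest p belonged to Pax6, at a log2 fold change of 0.31 (adjusted p = 0.608), which passed an unadjusted p under 0.05. Hes5 was at a log2 fold change of -0.29 and passed neither threshold. The cortical neuron markers, Neurod2 and Tbr1 among them, were detected in every library. The part of dividing cells in the value of Ezh2 was not tested.

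Markers of other cells moved with genotype in TPM. Summed TPM did not overlap for 7 microglia markers (76.0 to 87.9 in Ctrl, 96.6 to 105 in cKO), 5 endothelial markers (160 to 171 and 179 to 229) and 4 striatal markers (79.6 to 91.3 and 106 to 117). In the test on counts, 0 of these 16 genes passed the adjusted threshold of edgeR and Cdh5, an endothelial cadherin, passed an unadjusted p under 0.05 (log2 fold change 0.41, adjusted p = 0.514). The 3 sums were higher in cKO on the scale on which the median gene was also 0.16 higher. Summed TPM overlapped for the markers of interneurons, thalamus, astrocytes, oligodendrocyte precursors, pericytes and meninges, and erythroid cells. The part of these cells in the values of the PRC2 members was not tested.

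The genes whose pattern over the 6 libraries was most like that of Ezh2 were Cir1, Grem1 and Zfp101, with Pearson r of 0.996, 0.991 and 0.987 between log2 normalized counts. For Ezh1 they were Aldh1l2, Msh6 and Zfp994, with r of 0.996, 0.992 and 0.992. With 6 points and 13570 genes, values of this size are a description of these libraries only.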

How the data were processed

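Cortical RNA of 3 Ctrl and 3 cKO embryos at E18.5 was sequenced by the authors, who deposited 1 table that holds, for each gene in each library, estimated counts, TPM and FPKM. The deposited estimated counts were not normalized between libraries, the deposited TPM sum to one total in every library, and FPKM as the authors give it is scaled by length and depth. The submitters' processing notes name HISAT2 2.2.1, Bowtie2 2.4.5, RSEM 1.3.1, GRCm38 and mm10 with no role for each, and strandedness was not given in the sources used here.

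Estimated counts were rounded, filtered with filterByExpr and scaled by TMM. Groups were compared over all genes with edgeR 4.0.16 (quasi-likelihood, Benjamini-Hochberg) in R 4.3.3. Standard errors and 95% intervals were derived from that fit. Normalized counts are edgeR's CPM, FPKM served to describe libraries, and errors of means are SD. The PRC2 members and all lists were chosen with earlier results of these data known, so lists were counted and not tested. One marker is not reported here and was left out of its list. The genes named are all members, Ybx1, Rbbp7, Aebp2, the H3K27 demethylase list and the genes most correlated with Ezh2 and Ezh1. From other lists, genes with an adjusted p under 0.05 or among the lowest p were named. Lcor, Lcorl and Tbr1 were named outside these rules. The Hox and Cdkn2 genes, Epop and Ezhip were named after their values were seen. Permutation tests were exact. Nothing states that the embryos of a group came from different litters, and p-values measure only the spread between these libraries. Replicates differed by more than sampling noise (chi-square over degrees of freedom, 3.43 to 62.8), so no library was a duplicate. Coordinates, lengths and GC content are from GENCODE M21 (GRCm38), since the table holds none, and 97.7% of the genes had a length and GC content. Promoters of 9 of 9 members came from RefSeq. The alternatives were DESeq2 1.42.0, RLE size factors, the replicate block, other count filters, limma 3.58.1 on log2(TPM + 0.1), a length and GC correction (mgcv 1.9.3), X and Y genes left out, and each library left out. Methods were tested on simulated data. Figures were drawn with matplotlib 3.10.9.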

Additional observations from a re-analysis of the deposited data

How the results depend on the processing

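No PRC2 member passed the adjusted threshold in any of the 15 alternatives, and the lowest adjusted p was 0.304. Of 135 values of single members under these alternatives, 121 kept their direction and 14 reversed; none of these gained or lost a call. On limma with log2(TPM + 0.1), the members' median was 0.0965 in place of -0.04, and Ezh1 (0.033), Ezh2 (0.0050), Jarid2 (0.0919), Phf1 (0.0887) and Rbbp4 (0.0965) turned positive, on a scale where the median of all genes was 0.16. The length and GC correction gave -0.0341 for Suz12, and -0.0356 with the replicate block. With each library left out in turn, the number of members with an unadjusted p under 0.05 was 0 to 2, the members' median -0.05 to 0.01 and the difference in the Ezh2 share -0.53 to 0.10 percentage points. Log2 fold changes then ran from -0.235 to -0.0386 for Ezh1, -0.219 to -0.0692 for Ezh2, -0.0892 to 0.152 for Suz12, -0.0999 to 0.0464 for Jarid2, -0.179 to 0.0852 for Phf1, -0.0432 to 0.149 for Phf19 and -0.0862 to 0.0135 for Rbbp4. Called genes over the whole table were 10, and 99 with DESeq2, 152 with the length and GC correction (160 with the replicate block), 122 without Ctrl replicate 2, 19 without Ctrl replicate 3 and 6 without X and Y genes. The replicate numbers are not stated to mark a shared litter or batch. Deviations of same-numbered libraries correlated by 0.10, 0.08 and 0.26 (mean 0.15, where 0.1 was the minimum set for pairing). Each of the 6 libraries correlated best with its own number. The main test and the permutation tests did not pair libraries. The replicate block gave 0 called members, a median of -0.03 and 11 called genes in all. Depth limits Phf19 most. Counting noise adds to a spread between libraries of 0.148 (common biological coefficient of variation).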
